A study of Mus musculus with 24 samples.

Results

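Fatty acid oxidation and the targets of PPAR alpha were followed through mouse liver with and without cholangiocarcinoma (CCA), a cancer that arises from bile duct cells. The set comprised 35 genes of the 49315 in the count table, each taken by its gene symbol, and all 35 passed the filter on low counts. RNA sequencing had been done on liver tissue of 4 groups with 6 libraries each. In the tumour-bearing groups, CCA.Wild-type and CCA.Mdr2-/- (here CCA livers), the liver had been transduced with AKT and YAP1 on an integrating transposon, and in the control groups (Ctrl.Wild-type and Ctrl.Mdr2-/-) with an empty vector. The Mdr2-/- animals lack Abcb4, the canalicular phospholipid transporter also called Mdr2, and both of their groups carry this loss. The promoter that drives the oncogenes, the age and the sex of the mice, and any pooling of animals are not stated in the labels. Because whole tissue was sequenced, fewer cells of a type and less RNA per cell cannot be told apart.

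In the liver, fatty acids bind Fabp1 in the cytosol, are joined to coenzyme A by synthetases, and enter mitochondria as carnitine esters. There a repeating cycle of dehydrogenation, hydration, a further dehydrogenation and thiolysis shortens the chain, and in fasting the resulting acetyl-CoA is turned into ketone bodies. Peroxisomes shorten very long chains by a parallel set of enzymes and pass the products on, while acyl-CoA thioesterases release free fatty acids from coenzyme A. PPAR alpha, a nuclear receptor that binds DNA together with RXR, is activated by fatty acids and raises the transcription of many of these genes, among them the secreted hormone Fgf21.

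The symbols fell into 7 groups by role, namely 3 genes of carnitine-dependent entry, 11 of mitochondrial beta-oxidation, 8 of peroxisomal oxidation, 5 thioesterases, 1 ketogenic gene, 3 of uptake and activation and 4 regulators that respond to PPAR alpha. Levels are given as CPM, counts scaled to a common library total, after TMM scaling, a correction for libraries in which a few genes take up much of the sequencing, as the lowest, median and highest of 6 libraries. Changes are log2 fold changes ± SE from 1 edgeR quasi-likelihood fit of all 24 libraries with 17216 genes, and calling a gene required an adjusted p (Benjamini-Hochberg, over all of them) below 0.05. Levels of different genes were compared only in TPM, which the authors deposited and which is corrected for gene length. The labels speak of individual tissues without stating that each came from a separate animal, and the p-values therefore rest on the spread among these samples, which may be technical.

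Total counts were 20976459 to 30288385 per library. Abcb4, the targeted gene, lay between 165 and 377 CPM in the 12 wild-type libraries and between 21.7 and 59.3 CPM in the 12 Mdr2-/- libraries, so every library matched its genotype label. Alb, the major plasma protein of hepatocytes, had a median of 54654 TPM in wild-type controls, 38709 in wild-type CCA livers, 58503 in Mdr2-/- controls and 29773 in Mdr2-/- CCA livers. A list of 17 hepatocyte markers had 16 members in the files, Tf being unmatched under that symbol, and 11 of the 16 fell with tumours in each genotype. Cholangiocyte markers summed to 63.8 to 120 TPM in wild-type controls, 203 to 2006 in wild-type CCA livers, 105 to 426 in Mdr2-/- controls, and between 1252 and 6649 in Mdr2-/- CCA livers. Wild-type CCA replicate 6 stood apart from its group, with a correlation of 0.9685 with the median of the other 5 libraries over 17216 genes, and Mdr2-/- CCA replicate 1 had the lowest such value of its group, 0.9804. The other 22 libraries lay between 0.981 and 0.9935. Without these 2 libraries, 4 of the 35 genes rose and 13 fell with tumours in Mdr2-/-, 3 rose and 13 fell in wild type, 5 differences of tumour effects were called, all higher in Mdr2-/-, and genotype gave 1 higher and 24 lower in controls and 0 and 19 in CCA livers.

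Promoters of 30 of the 35 genes were found in RefSeq sequence of build GRCm38.p6, which is not the mm39 build of the counts. They were searched, from 250 bases before to 50 bases after the start site, for the kind of element PPAR alpha and RXR are known to bind. That element is a direct repeat of 2 copies of AGGTCA with 1 base between them, and it was sought on both strands with at most 2 mismatches. Such a match was present in 4 of the 30 promoters (13.3%) and in 1190 of 27025 promoters of all genes (4.4%). With at most 1 mismatch, 1 of 30 (3.33%) and 174 of 27025 (0.644%) held one. The 4 matches are shown because the levels of 2 of their genes, Fabp1 and Acot4, differed strongly between genotypes while those of the others differed less. The capitals mark the repeat, and each line is read along the strand of the gene.
Fabp1, chr6:71199804-71199832, + strand: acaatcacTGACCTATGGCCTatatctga
Acot4, chr12:84038358-84038386, + strand: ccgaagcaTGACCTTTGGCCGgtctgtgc
Echs1, chr7:140116484-140116512, - strand: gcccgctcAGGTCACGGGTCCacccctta
Slc25a20, chr9:108662134-108662162, + strand: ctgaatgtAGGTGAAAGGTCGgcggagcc

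In Fabp1 the repeat lies 67 to 55 bases before the start site, on the opposite strand, with 1 mismatch. Acot4 has it 13 to 1 bases before the start site, also on the opposite strand, Echs1 83 to 71 bases before it, and Slc25a20 from base 6 to base 18 after it, each of these 3 with 2 mismatches. A match in these letters is a description and does not show binding.

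The loss of Mdr2 in livers without tumours went with the most calls. In Mdr2-/- controls, 24 of the 35 genes were lower than in wild-type controls and 1 was higher, against 24.3% of all 17216 genes lower and 26.2% higher. The median log2 fold change of the 35 was -0.72, beside 0.03 for all genes. Between the CCA groups of the 2 genotypes, 18 genes were lower in Mdr2-/- and 0 higher, against 4.0% and 7.13% of all genes, with a median of -0.46 beside -0.02. All 35 estimates were below 0 in that comparison with TMM, 33 by total library size and 32 on log2(TPM + 1). The number lower there fell to 10 without wild-type CCA replicate 2 or Mdr2-/- CCA replicate 6, and to 11 without wild-type replicate 4 or Mdr2-/- replicate 5 of the CCA groups. A total of 16 genes were lower in Mdr2-/- in both conditions: Acadl, Acadm, Acadvl, Acot1, Acsl1, Angptl4, Decr1, Eci1, Eci2, Ehhadh, Fabp1, Hsd17b4, Pex11a, Slc25a20, Slc27a2 and Vnn1. Of all genes at most 4.0%, the share lower in CCA livers, can be lower in both. Only for Acadm, Acot1 and Fabp1 did both calls hold under every alternative run.

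Tumours went with smaller and more mixed changes. In wild-type livers 13 of the 35 genes fell and 3 rose, against 11.5% of all genes falling and 16.9% rising, and the median was -0.27 beside 0.03. Without wild-type CCA replicate 3 or 5 the number that fell was 8, Acaa2, Acadm, Acot3, Crot and Hadha being lost in each case. In Mdr2-/- livers 11 fell and 5 rose, against 17.0% and 17.9% of all genes, with a median of -0.16 beside 0.04. The number that fell was 7 without Mdr2-/- control replicate 1 or Mdr2-/- CCA replicate 5 or 6, Acads, Acadvl, Bdh1 and Slc27a2 being lost each time. The number that rose was 2 without Mdr2-/- control replicate 6, where Acot1, Acot8 and Fgf21 were lost, and 3 without control replicate 4 or 5 or CCA replicate 2 of that genotype. Cpt2, Acadvl, Hadha, Acaa2, Ehhadh and Slc27a2 fell in both genotypes, Fgf21 and Vnn1 rose in both, and Acot1 fell in wild type and rose in Mdr2-/-. The tumour effect differed between genotypes for 6 genes, 4 with the higher value in Mdr2-/- and 2 with the lower. These counts do not exceed the 11.9% and 13.4% of all genes and show nothing about the set. Without Mdr2-/- CCA replicate 6 the tumour effect was higher for 7, Acadl, Acsl1 and Hadhb being added. Without that library, Mdr2-/- CCA replicate 5 or Mdr2-/- control replicate 1 it was lower for 1, Acot2 being lost. Since the wild-type controls serve both the wild-type tumour comparison and the genotype comparison of controls, and the Mdr2-/- controls likewise serve 2 comparisons, the effects printed side by side are not independent.

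How many of the smaller changes were called depended on the scaling. Scaling by total library size moved the median of all genes to 0.33 for genotype in controls and for tumours in wild type, and log2(TPM + 1) moved it to 0.30 and 0.20. On these scales the 35 genes had medians of -0.42 and -0.21 for genotype in controls, which is 0.75 and 0.51 below the all-gene median, against 0.75 below it with TMM. For tumours in wild type they had medians of 0.02 on both scales, 0.31 and 0.18 below all genes, against 0.30 below with TMM. The split of calls moved with it. By total library size it was 3 higher and 19 lower for genotype in controls, 0 and 8 for that in CCA livers, 6 and 5 for tumours in wild type, and 8 and 4 for tumours in Mdr2-/-. By log2(TPM + 1) these splits were 4 and 12, 0 and 8, 5 and 4, and 5 and 5. With upper-quartile factors the split was 5 and 7 for tumours in Mdr2-/- and 7 and 2 for the difference of tumour effects. Over all genes the split moved too, from 4512 higher and 4178 lower for genotype in controls to 7247 and 2325 by total library size and 8121 and 1589 by log2(TPM + 1), and from 2915 and 1976 for tumours in wild type to 5783 and 603 and to 4498 and 478. For tumours in Mdr2-/- it moved from 3074 and 2921 to 5565 and 924 and to 4109 and 1036, and for genotype in CCA livers from 1228 and 689 to 2668 and 259 and to 3053 and 253.

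The share of 7 nuclear non-coding RNAs, Malat1 and Neat1 among them, also moved with tumours. As a percentage of counts its median was 4.41% in wild-type controls, 5.94% in wild-type CCA livers, 3.17% in Mdr2-/- controls and 6.05% in Mdr2-/- CCA livers, and the 2 Mdr2-/- groups did not overlap (1.74 to 4.29% against 4.60 to 7.95%). With this share as a covariate, 3 of the 35 genes rose and 0 fell with tumours in Mdr2-/-, while 4 rose and 15 fell in wild type. Its part in the Mdr2-/- tumour result was not tested. Transcripts encoded by mitochondrial DNA held 5.97 to 9.21% of counts in wild-type controls (median 7.63%) and 3.9 to 5.0% in Mdr2-/- controls (median 4.36%), with no overlap between these 2 groups. In CCA livers the medians were 4.98% in wild type (4.28 to 7.27%) and 3.52% in Mdr2-/- (2.74 to 5.75%), each below that of its controls. The part of this share in the changes of the 35 genes was not tested. A further label, the number in the sample titles, whose meaning is not stated, was at least 2000 in 6 of 6 wild-type CCA livers and 1 of 6 wild-type controls. With the range of that number as a covariate, 3 genes rose and 3 fell with tumours in wild type. Tumour and title number can hardly be told apart in that genotype.

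**Figure D1:**
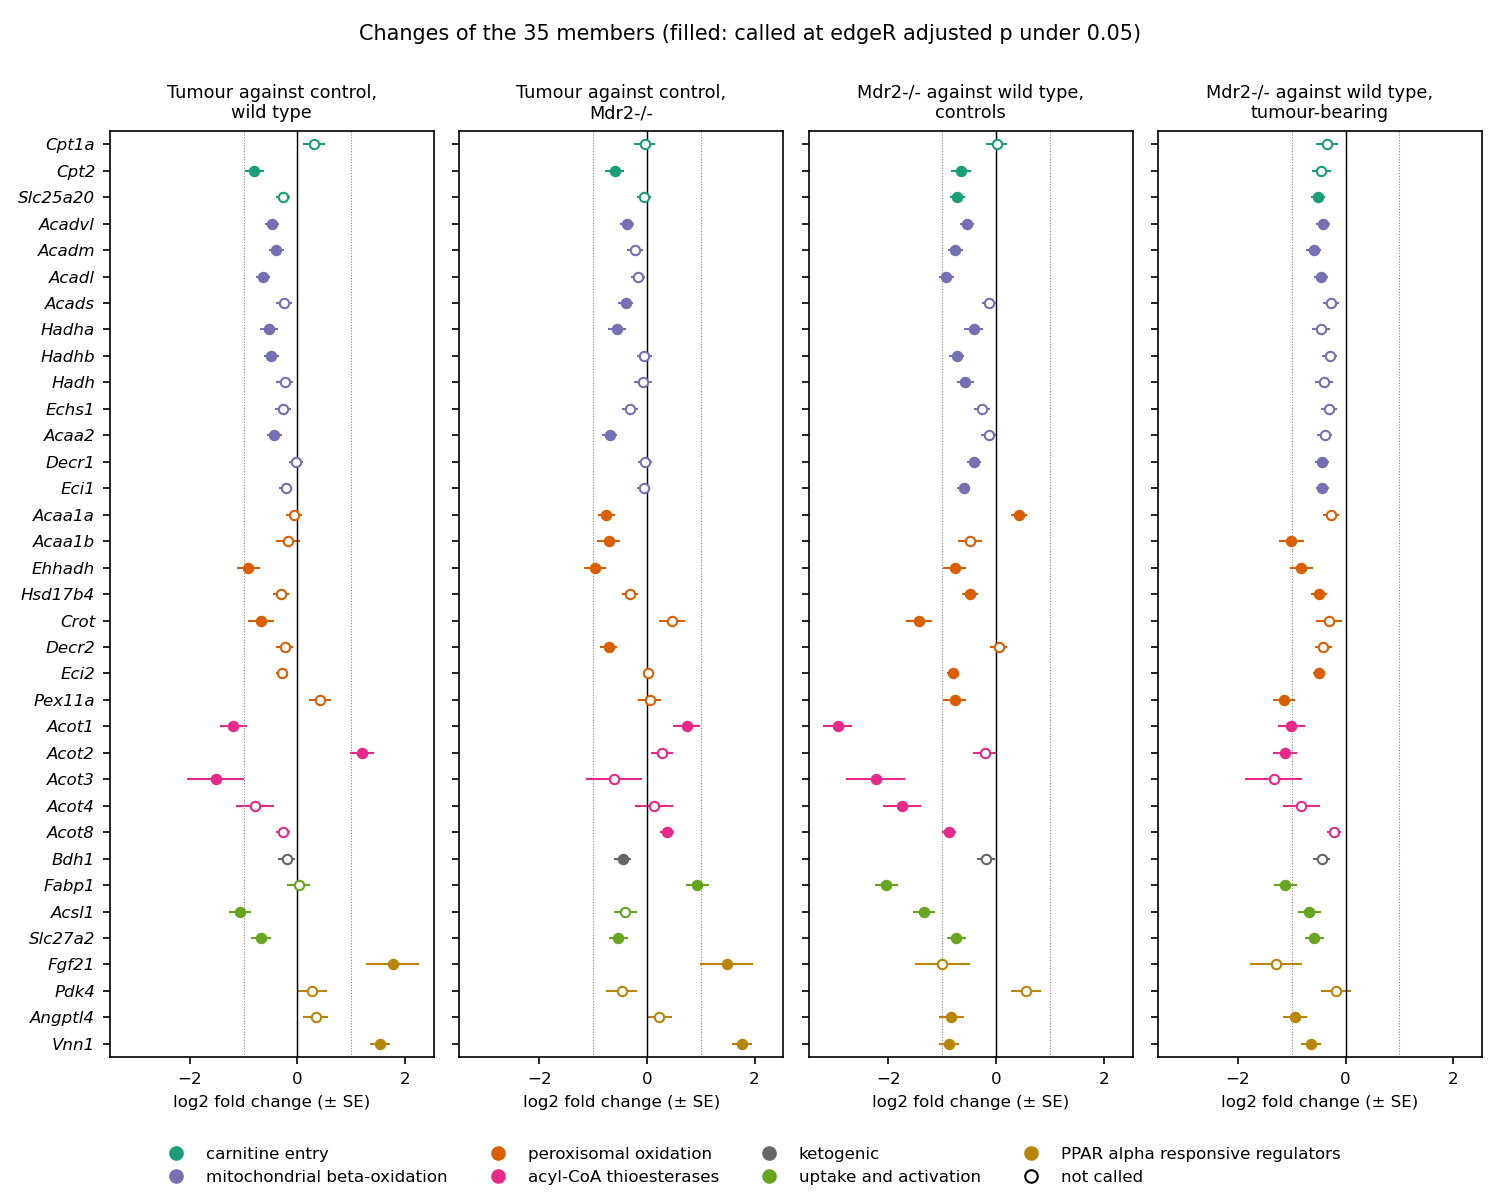
Log2 fold changes (± SE, horizontal axis) of the 35 genes in 4 comparisons of 6 against 6 libraries, coloured by role, with filled points for genes called at an edgeR adjusted p under 0.05 and dotted lines at 2-fold. For genotype in controls 24 filled points lie left of 0 and 1, Acaa1a, lies right of it.

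Of the carnitine-dependent entry genes, Cpt1a, the malonyl-CoA-sensitive enzyme of the outer mitochondrial membrane, was called in no comparison. It stood at 234, 267 and 322 CPM (lowest, median and highest) in wild-type controls and 270, 307 and 521 CPM in wild-type CCA livers. In Mdr2-/- it had 178, 241 and 431 CPM in controls and 203, 272 and 331 CPM in CCA livers. All 4 groups overlapped, and the estimates ran from -0.34 ± 0.20 for genotype in CCA livers to 0.31 ± 0.20 for tumours in wild type. With the nuclear RNA share as a covariate its tumour effect in Mdr2-/- was called at 0.63.

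Cpt2, which moves the acyl group back to coenzyme A at the inner membrane, fell with tumours by 0.80 ± 0.18 in wild type and 0.60 ± 0.18 in Mdr2-/-, and was lower in Mdr2-/- controls by 0.65 ± 0.18 (log2 fold change -0.65). Slc25a20, the carnitine carrier between them, was lower in Mdr2-/- controls (-0.72 ± 0.14, edgeR adjusted p = 0.000128) and in Mdr2-/- CCA livers (-0.52 ± 0.13, adjusted p = 0.0139). In CPM its libraries overlapped in neither of these comparisons. Its tumour effects, -0.26 ± 0.13 in wild type and -0.05 ± 0.13 in Mdr2-/-, were not called. Between the control livers of the 2 genotypes, then, the carrier and Cpt2 differed with TMM scaling, and the estimate for Cpt1a was 0.01 ± 0.20. There the call of the carrier held under every alternative run, but that of Cpt2 was lost in some. Both tumour calls of Cpt2 and the CCA genotype call of the carrier were also lost in some runs. In TPM the 2 control groups overlapped for each gene. For Cpt2 the lowest wild-type control was at 79.2 and the highest Mdr2-/- control at 118.

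The 11 mitochondrial genes changed by less than 2-fold in each comparison. For genotype in controls 8 were lower and 3 not called, against 24.3% of all genes lower, with a median of -0.55. In CCA livers 5 were lower and 6 not called, against 4.0% of all genes lower, with a median of -0.42. With tumours, 6 fell in wild type and 4 in Mdr2-/-, against 11.5% and 17.0% of all genes, with medians of -0.39 and -0.22. No difference between the tumour effects was called, where 11.9% of all genes were higher in Mdr2-/- and 13.4% lower. In summed TPM the group was not lower in Mdr2-/- controls, at 1888, 2286 and 2515 against 1980, 2110 and 2453 in wild-type controls. Wild-type CCA livers had 1777, 1916 and 2587 and Mdr2-/- CCA livers 1436, 1865 and 2085, so all 4 ranges overlapped. Acaa2 alone held 677 to 1090 TPM of the sum in wild-type controls and 856 to 1168 in Mdr2-/- controls. The sum therefore weighs this gene more than the others and does not describe each of them. On log2(TPM + 1) 3 of the 11, Acadl, Acadm and Hadhb, were still lower for genotype in controls, Acads was higher (0.33), and Hadha and Decr1 had 0.02 where TMM gave -0.42 each.

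Acadm, the dehydrogenase for medium chains, was measured at 419, 474 and 568 CPM in wild-type controls, whereas Mdr2-/- controls had 270, 296 and 311 CPM. These ranges were separate, and the log2 fold change was -0.76 ± 0.14 (edgeR adjusted p = 0.000168). Tumour-bearing livers had 283, 398 and 445 CPM in wild type and 167, 250 and 344 CPM in Mdr2-/-, a genotype difference of -0.59 ± 0.14 (adjusted p = 0.00873) with overlapping ranges. Its tumour effect of -0.39 ± 0.14 in wild type was borderline, with an adjusted p of 0.0465 that rose above 0.05 in 19 of the 24 fits that left out 1 library (log2 fold change -0.41 to -0.31). It passed only without wild-type control replicate 5, wild-type CCA replicate 1 or 2, or Mdr2-/- CCA replicate 1 or 6. The Mdr2-/- tumour effect was -0.22 ± 0.14 and not called.

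Acadl, for long chains, had the largest genotype estimate of the mitochondrial group in controls, -0.93 ± 0.14, and fell with tumours in wild type by 0.64 ± 0.13. Acadvl, for very long chains, was lower in all 4 comparisons of groups, from -0.36 ± 0.13 with tumours in Mdr2-/- to -0.55 ± 0.13 for genotype in controls. Acads, for short chains, was called only with tumours in Mdr2-/-, at -0.39 ± 0.14. Among these dehydrogenases the difference of tumour effects that came closest to a call was that of Acadl, 0.48 ± 0.19 (edgeR adjusted p = 0.0645), which passed in 3 of the 24 fits that left out 1 library (0.50 to 0.59), those without Mdr2-/- CCA replicate 6, wild-type CCA replicate 1 or wild-type control replicate 5.

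Hadha and Hadhb encode the 2 subunits of the mitochondrial trifunctional protein and start 273 bases apart on opposite strands in GRCm38.p6. Hadha was measured at 330, 381 and 457 CPM in wild-type controls and 204, 251 and 427 CPM in wild-type CCA livers. The highest of the latter, in replicate 6, was far above the next library, at 264 CPM. In Mdr2-/- it had 218, 292 and 358 CPM in controls and 133, 201 and 242 CPM in CCA livers. It fell with tumours by 0.53 ± 0.17 in wild type and 0.56 ± 0.17 in Mdr2-/-, the wild-type call being lost without wild-type CCA replicate 3 or 5 (-0.46 and -0.48). For genotype in controls its -0.42 ± 0.17 (edgeR adjusted p = 0.0393) was lost in 9 of the 24 fits that left out 1 library (-0.42 to -0.35), those without wild-type control replicate 2, 3, 4 or 5, Mdr2-/- control replicate 2, 3, 4 or 5, or wild-type CCA replicate 1. Hadhb fell with tumours in wild type by 0.49 ± 0.14 but had -0.05 ± 0.14 in Mdr2-/-, not called, and was lower in Mdr2-/- controls (-0.73 ± 0.14).

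Of the other mitochondrial enzymes, the thiolase Acaa2 fell with tumours in both genotypes, by 0.43 ± 0.14 in wild type and 0.69 ± 0.14 in Mdr2-/-, where its libraries did not overlap those of the controls. It had the highest TPM of the group, with a wild-type control median of 810 and an Mdr2-/- control median of 1069. Hadh, the short-chain hydroxyacyl-CoA dehydrogenase, was called only for genotype in controls (-0.57 ± 0.16). Decr1 and Eci1, which prepare unsaturated chains for the cycle, were lower in Mdr2-/- in both conditions, Decr1 by 0.42 ± 0.13 in controls and Eci1 by 0.60 ± 0.12 (log2 fold changes -0.42 and -0.60). Echs1, the short-chain hydratase whose promoter is shown above, was called in no comparison, with estimates of -0.31 ± 0.15 to -0.26 ± 0.15 between groups, except that its tumour effect in Mdr2-/- passed without Mdr2-/- CCA replicate 1 (-0.44).

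Several calls of the mitochondrial group lay near the threshold and changed when 1 library was left out. With tumours in Mdr2-/-, the call of Acads was lost without Mdr2-/- control replicate 1 or CCA replicate 5 or 6 (-0.37 to -0.29), and that of Acadvl without any of these or control replicate 3 or 6 (-0.35 to -0.26). With tumours in wild type, the call of Acaa2 was lost without control replicate 2, 4 or 5 or CCA replicate 3 or 5 (-0.41 to -0.38). For genotype in CCA livers, Acadl was not called without wild-type replicate 1, 2 or 4 or Mdr2-/- replicate 3, 4, 5 or 6 (-0.46 to -0.37), and Acadvl without wild-type replicate 1, 2, 4 or 6 or Mdr2-/- replicate 5 or 6 (-0.41 to -0.32). In the same comparison Decr1 was lost without wild-type replicate 1, 2 or 4 or Mdr2-/- replicate 3, 5 or 6 (-0.45 to -0.34) and Eci1 without wild-type replicate 2 or 4 or Mdr2-/- replicate 5 or 6 (-0.40 to -0.37). Hadh passed there without Mdr2-/- replicate 1 (-0.54), and Hadha and Acaa2 without wild-type replicate 3 (-0.52 and -0.45). The difference of tumour effects passed for Hadhb without Mdr2-/- CCA replicate 6 (0.58).

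Among the 8 peroxisomal genes every call between groups was a lower one but that of Acaa1a. For genotype in controls 5 were lower and 1, Acaa1a, was higher, against 24.3% and 26.2% of all genes, with a median of -0.63. In CCA livers 5 were lower, against 4.0%, with a median of -0.49. With tumours 2 fell in wild type and 4 in Mdr2-/-, against 11.5% and 17.0%, with medians of -0.27 and -0.51. Summed over the group, TPM was 1428, 1608 and 1933 in wild-type controls and 1235, 1496 and 1960 in wild-type CCA livers. It was 1048, 1540 and 1681 in Mdr2-/- controls and 892, 1217 and 1396 in Mdr2-/- CCA livers, the last lying below every wild-type control.

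Ehhadh, the L-bifunctional enzyme that joins hydration and dehydrogenation in the peroxisome, was lower in each comparison. It had 563, 642 and 790 CPM in wild-type controls, above every library of the other groups. Wild-type CCA livers had 226, 396 and 427 CPM, Mdr2-/- controls 237, 410 and 435 CPM and Mdr2-/- CCA livers 91.1, 204 and 288 CPM. The log2 fold changes were -0.91 ± 0.21 with tumours in wild type (edgeR adjusted p = 0.00246) and -0.96 ± 0.21 in Mdr2-/- (adjusted p = 0.00203), with a difference of -0.05 ± 0.30. For genotype they were -0.77 ± 0.21 in controls and -0.82 ± 0.21 in CCA livers. The genotype call in controls and the wild-type tumour call were lost in some alternative runs. The Mdr2-/- tumour call was lost with the nuclear RNA share as a covariate. In TPM the control groups overlapped, at 320 to 447 in wild type and 175 to 332 in Mdr2-/-. In the Mdr2-/- control group replicate 4 was apart at 237 CPM, the next library being at 386. Hsd17b4, the D-bifunctional enzyme, was lower for genotype in both conditions (-0.48 ± 0.15 and -0.49 ± 0.15), and its tumour effects of -0.31 ± 0.15 and -0.32 ± 0.15 were not called, except in wild type without CCA replicate 6 of either genotype (-0.41 and -0.35). Its genotype call in CCA livers was lost without wild-type replicate 1, 2, 4 or 6 or Mdr2-/- replicate 3, 5 or 6 (-0.50 to -0.37).

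Crot, which makes carnitine esters of the shortened medium chains for export, had a tumour effect that differed between the genotypes. Its levels were 713, 1219 and 1781 CPM in wild-type controls and 409, 764 and 1061 CPM in wild-type CCA livers. Mdr2-/- controls had 303, 425 and 612 CPM, below every wild-type control, and Mdr2-/- CCA livers 370, 667 and 775 CPM. The tumour effect was -0.68 ± 0.24 in wild type (edgeR adjusted p = 0.0348) and 0.47 ± 0.24 in Mdr2-/-, not called, and the difference between them was 1.14 ± 0.34 (adjusted p = 0.0164). The wild-type call was lost in 7 of the 24 fits that left out 1 library (-0.68 to -0.54), those without wild-type control replicate 3, 4 or 6 or wild-type CCA replicate 3, 4, 5 or 6. Genotype gave -1.44 ± 0.24 in controls, a level 2.72 times lower, and -0.30 ± 0.24 in CCA livers, which was not called and on log2(TPM + 1) was 0.01.

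Acaa1a and Acaa1b, the peroxisomal thiolases, have coding sequences identical at 96.5% of aligned bases, with an identical run of 327 bases, longer than the reads of 150 bases, so that the division of reads between them is uncertain. Acaa1b had 339, 495 and 565 CPM in wild-type controls, 255, 438 and 558 in wild-type CCA livers, 224, 377 and 403 in Mdr2-/- controls and 87.5, 218 and 294 in Mdr2-/- CCA livers. Its genotype difference was -1.01 ± 0.23 in CCA livers (edgeR adjusted p = 0.00455) and -0.48 ± 0.22 in controls, not called unless Mdr2-/- CCA replicate 6, its lowest library, was left out (-0.51, adjusted p = 0.0224). It fell with tumours in Mdr2-/- by 0.71 ± 0.22. Acaa1a was the 1 gene of the 35 that was higher in Mdr2-/- controls, at 0.42 ± 0.15, a call lost without Mdr2-/- control replicate 1 (0.34). It fell with tumours in Mdr2-/- by 0.75 ± 0.15 but had -0.06 ± 0.15 in wild type, and the difference of -0.69 ± 0.21 was called (adjusted p = 0.0215).

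Decr2 and Eci2, the peroxisomal counterparts of Decr1 and Eci1, went separate ways. Decr2 fell with tumours in Mdr2-/- (-0.71 ± 0.16) and had 0.05 ± 0.16 for genotype in controls, while Eci2 had 0.03 ± 0.11 with tumours in Mdr2-/- and was lower for genotype in controls (-0.81 ± 0.11) and in CCA livers (-0.49 ± 0.11). The tumour effect of Eci2 in wild type, -0.29 ± 0.11, passed only without Mdr2-/- control replicate 1 or 6 or Mdr2-/- CCA replicate 5 or 6 (-0.33 to -0.29). Pex11a, a membrane protein of peroxisome division, was measured at 59.1, 77.0 and 135 CPM in wild-type controls, 79.5, 114 and 144 in wild-type CCA livers, 37.0, 45.4 and 72.5 in Mdr2-/- controls and 37.3, 49.7 and 76.5 in Mdr2-/- CCA livers. The 2 CCA groups were separate, with a genotype difference of -1.14 ± 0.21 (edgeR adjusted p = 0.001), and in controls it was -0.77 ± 0.21. Its tumour effect of 0.42 ± 0.21 in wild type was not called, except without wild-type control replicate 1 (0.59, adjusted p = 0.0331).

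The 5 acyl-CoA thioesterases had the lowest medians for genotype, -1.75 in controls with 4 lower, and -1.01 in CCA livers with 2 lower. Of all genes 24.3% and 4.0% were lower there. With tumours, 2 fell and 1 rose in wild type (median -0.79), against 11.5% and 16.9% of all genes. In Mdr2-/- 0 fell and 2 rose (median 0.28), against 17.0% and 17.9%. With 5 genes, the 1 that rose in wild type and the 0 that fell in Mdr2-/- are near those shares and show nothing about the group. The difference between the tumour effects had a median of 0.91. It was called for 3 of the 5, 2 higher and 1 lower in Mdr2-/-, against 11.9% and 13.4% of all genes. In summed TPM the group had 189, 248 and 615 in wild-type controls, 152, 181 and 282 in wild-type CCA livers, 60.8, 106 and 201 in Mdr2-/- controls and 89.9, 120 and 168 in Mdr2-/- CCA livers.

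Acot1, which acts in the cytosol, and Acot2, its mitochondrial counterpart, are shown as a stretch of 90 coding bases because with tumours in wild type one fell and the other rose, although their sequences are close. The coding sequences are identical at 85.5% of aligned bases, with 1 identical run of 273 bases. The stretch runs from coding base 797 to 886 in Acot1 and from 920 to 1009 in Acot2 (GENCODE M21 transcripts, GRCm38), and capitals mark the 14 bases that differ.
Acot1: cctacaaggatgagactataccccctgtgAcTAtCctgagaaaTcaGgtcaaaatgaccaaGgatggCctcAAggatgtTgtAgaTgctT
Acot2: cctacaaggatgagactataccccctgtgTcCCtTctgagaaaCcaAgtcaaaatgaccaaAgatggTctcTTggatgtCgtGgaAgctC

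Reads of 150 bases from such stretches can tell the genes apart, whereas those from the shared run cannot, and how the authors treated them is not stated. Acot1 was measured at 39.3, 47.5 and 56.9 CPM in wild-type controls, above every library of the other 3 groups. Wild-type CCA livers had 15.1, 18.3 and 30.0 CPM, Mdr2-/- controls 2.74, 6.45 and 10.1 CPM and Mdr2-/- CCA livers 5.76, 10.4 and 15.2 CPM. The level was 7.68 times lower in Mdr2-/- than in wild-type controls (-2.94 ± 0.27, edgeR adjusted p = 5.75e-09) and 2.01 times lower in CCA livers (-1.01 ± 0.25, adjusted p = 0.0101). With tumours it fell by 1.19 ± 0.25 in wild type and rose by 0.74 ± 0.25 in Mdr2-/-, and the difference was 1.93 ± 0.36 (adjusted p = 0.00066). The rise was lost without Mdr2-/- control replicate 4, 5 or 6 or Mdr2-/- CCA replicate 4 (0.58 to 0.70, adjusted p 0.0529 to 0.0747).

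Acot2 showed another order of the groups. It was measured at 11.1, 15.1 and 24.7 CPM in wild-type controls, 26.2, 36.7 and 54.7 in wild-type CCA livers, 8.55, 14.6 and 19.3 in Mdr2-/- controls and 11, 19.2 and 22.2 in Mdr2-/- CCA livers. The wild-type CCA livers lay above every library of the other groups. It rose with tumours in wild type by 1.2 ± 0.22 (edgeR adjusted p = 0.000215), and had 0.28 ± 0.21 in Mdr2-/-. The difference of -0.91 ± 0.30 (adjusted p = 0.0296) was lost without Mdr2-/- control replicate 1 or Mdr2-/- CCA replicate 5 or 6 (-0.85 to -0.76). Between the 2 control groups it had -0.21 ± 0.22, not called and 0.24 on log2(TPM + 1), and between the CCA groups -1.12 ± 0.22 (adjusted p = 0.00132).

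Acot3 and Acot4, peroxisomal enzymes of the same gene cluster, ranged widely within groups. The coding sequence of Acot3 is identical to that of Acot1 at 81.4% of aligned bases. Acot3 had 87.0, 178 and 486 CPM in wild-type controls and 43.1, 55.5 and 148 in wild-type CCA livers. In Mdr2-/- it had 15.8, 36.5 and 113 CPM in controls and 12.4, 21.4 and 81.4 in CCA livers. The genotype difference in controls was -2.24 ± 0.54 (edgeR adjusted p = 0.00168). Its fall with tumours in wild type, -1.52 ± 0.53 (adjusted p = 0.0343), was lost in 7 of the 24 fits that left out 1 library (-1.47 to -1.09), those without wild-type control replicate 1, 2 or 6 or wild-type CCA replicate 2, 3, 5 or 6. The lowest of these sizes came without control replicate 6, the library at 486 CPM. In CCA livers the genotype difference of -1.33 ± 0.53 was called only without Mdr2-/- CCA replicate 1 (-1.95, adjusted p = 0.0129).

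Acot4 had 61.8, 107 and 314 CPM in wild-type controls, 44.9, 74.3 and 144 in wild-type CCA livers, 28.8, 40.1 and 66.5 in Mdr2-/- controls and 25.8, 39.5 and 92.1 in Mdr2-/- CCA livers. Wild-type control replicate 6 again held the highest value and replicate 5 the lowest. The genotype difference in controls was -1.75 ± 0.36 (edgeR adjusted p = 0.00035), a level 3.37 times lower. Its tumour effects, -0.79 ± 0.35 in wild type and 0.13 ± 0.35 in Mdr2-/-, were not called, the former except without wild-type CCA replicate 1 (-1.01) or wild-type control replicate 5 (-0.93). In CCA livers the genotype difference of -0.82 ± 0.35 was called only without Mdr2-/- CCA replicate 1 (-1.14). Acot8, a peroxisomal enzyme outside that cluster, was lower in Mdr2-/- controls (-0.87 ± 0.13), rose with tumours in Mdr2-/- (0.38 ± 0.13) and had -0.27 ± 0.13 in wild type, the difference of 0.66 ± 0.19 being called (adjusted p = 0.0139). Its rise was lost without Mdr2-/- control replicate 3, 4 or 6 or Mdr2-/- CCA replicate 1 or 2 (0.32 to 0.36).

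**Figure D2:**
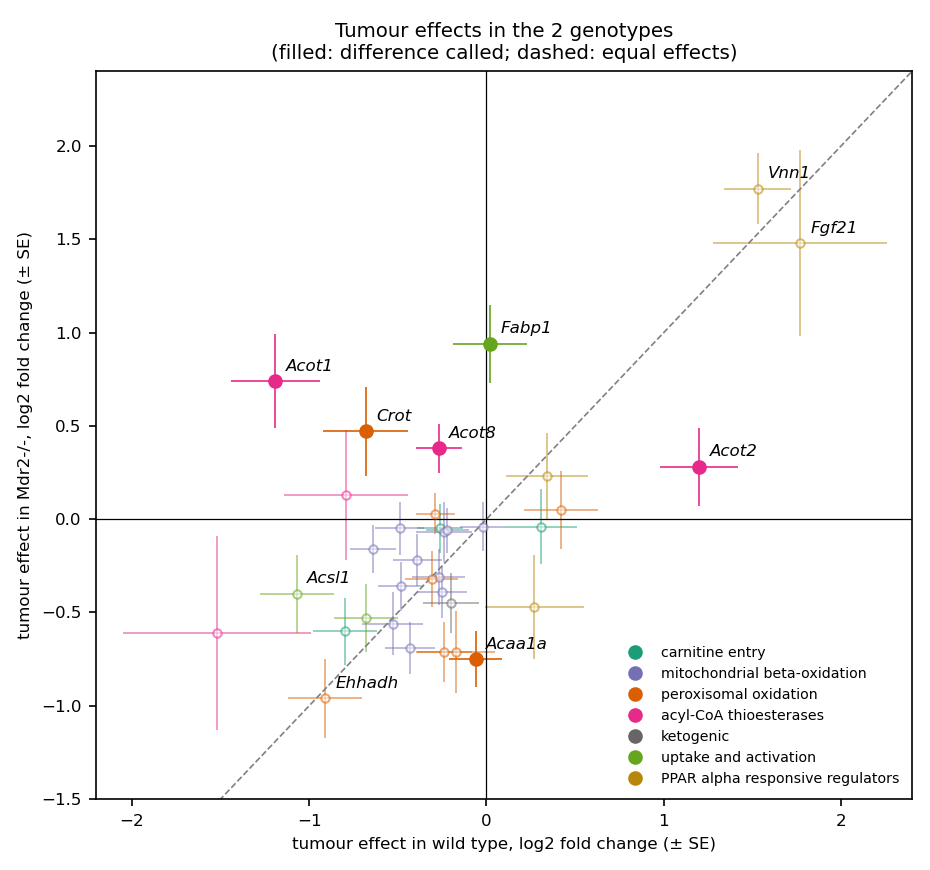
Tumour effect in Mdr2-/- (vertical axis) against tumour effect in wild type (horizontal axis) for the 35 genes, both as log2 fold changes ± SE, with filled points where the difference of the 2 effects was called by edgeR. Of the 6 filled points, Acot1, Crot, Acot8 and Fabp1 lie above the dashed line of equal effects, and Acot2 and Acaa1a lie below it.

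The ketogenic part was Bdh1, the mitochondrial enzyme that interconverts the main ketone bodies. It stood at 204, 255 and 318 CPM in wild-type controls and 172, 220 and 308 in wild-type CCA livers, and at 172, 229 and 276 in Mdr2-/- controls and 120, 161 and 198 in Mdr2-/- CCA livers. All ranges overlapped except that Mdr2-/- CCA livers lay below wild-type controls. It fell with tumours in Mdr2-/- by 0.45 ± 0.16 (edgeR adjusted p = 0.0356), a call lost in 7 of the 24 fits that left out 1 library (-0.44 to -0.36), those without Mdr2-/- control replicate 1, 5 or 6 or Mdr2-/- CCA replicate 1, 3, 5 or 6. With the nuclear RNA share as a covariate the value was 0.03. The other 3 comparisons of groups gave -0.20 ± 0.16, -0.19 ± 0.16 and -0.44 ± 0.16, none called. On log2(TPM + 1) the sign turned for tumours in wild type (0.09) and for genotype in controls (0.25).

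Uptake and activation held the gene with the highest TPM of the 35. Fabp1, the fatty acid binding protein of the hepatocyte cytosol, had a median of 7717 TPM in wild-type controls, when the next of the 35, Acaa2, had 810. In CPM, Fabp1 had 1714, 2602 and 2870 in wild-type controls and 1337, 2373 and 3603 in wild-type CCA livers. Mdr2-/- controls had 414, 632 and 718, and Mdr2-/- CCA livers 931, 1039 and 1486. The Mdr2-/- controls lay below every library of the other groups, 4.12 times lower than wild-type controls (-2.04 ± 0.21, edgeR adjusted p = 5.87e-08). With tumours the level rose in Mdr2-/- by 0.94 ± 0.21 (adjusted p = 0.00183) and had 0.02 ± 0.21 in wild type, and the difference of 0.92 ± 0.29 was called (adjusted p = 0.0232). Tumour-bearing livers of the 2 genotypes differed by -1.12 ± 0.21 (adjusted p = 0.001).

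Acsl1, the main long-chain acyl-CoA synthetase of the liver, was measured at 1128, 1221 and 1455 CPM in wild-type controls, above every library of the other groups. Wild-type CCA livers had 371, 570 and 969 CPM, Mdr2-/- controls 304, 477 and 735 CPM and Mdr2-/- CCA livers 224, 385 and 496 CPM. It was 2.53 times lower in Mdr2-/- than in wild-type controls (-1.34 ± 0.21, edgeR adjusted p = 2.09e-05) and fell with tumours in wild type by 1.07 ± 0.21 (adjusted p = 0.000505), with -0.40 ± 0.21 in Mdr2-/-. The difference of 0.67 ± 0.30 was not called, except without wild-type CCA replicate 6, Mdr2-/- control replicate 1 or Mdr2-/- CCA replicate 6 (0.80 to 0.85). In CCA livers the genotype difference of -0.67 ± 0.21 (adjusted p = 0.039) was lost in 8 of the 24 fits that left out 1 library (-0.69 to -0.48), those without wild-type replicate 1, 2, 4 or 6 or Mdr2-/- replicate 3, 4, 5 or 6. Slc27a2, a transporter and synthetase for very long chains, fell with tumours in both genotypes, by 0.68 ± 0.18 and 0.53 ± 0.18, and was lower for genotype in both conditions (-0.74 ± 0.18 and -0.58 ± 0.18). Its fall in Mdr2-/- was lost without control replicate 1 or 6 or CCA replicate 5 or 6 (-0.51 to -0.37), and its genotype call in CCA livers without wild-type replicate 1, 2, 4 or 6 or Mdr2-/- replicate 4, 5 or 6 (-0.60 to -0.47).

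**Figure D3:**
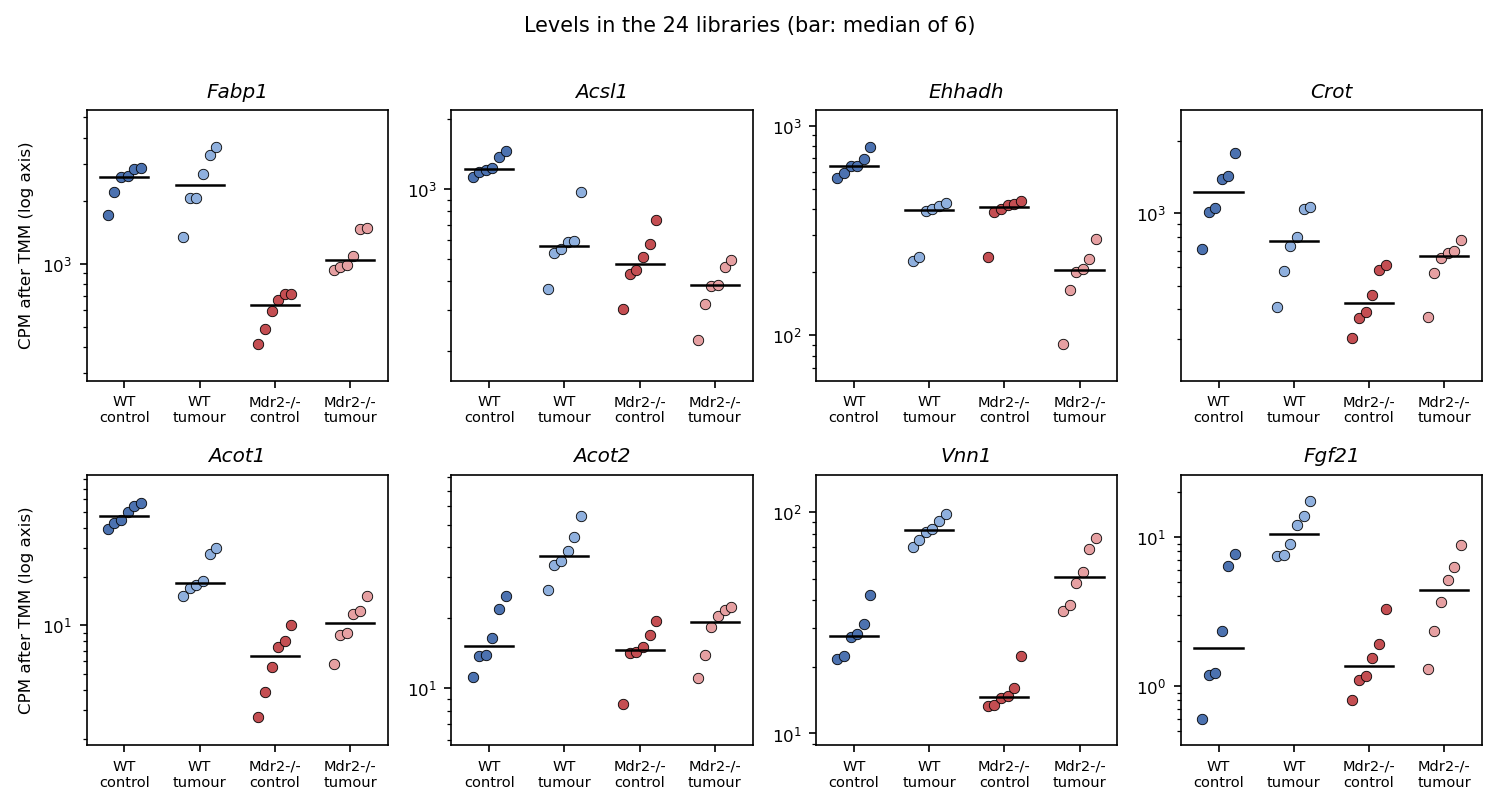
CPM after TMM scaling (log axis) of 8 genes in each of the 24 libraries, by group, with a bar at the median of 6. Fabp1, Acsl1, Crot and Acot1 are lower in the Mdr2-/- controls than in every wild-type control, while Vnn1 and Fgf21 have their highest group medians in wild-type CCA livers (82.8 and 10.4 CPM).

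In summed TPM the 3 uptake and activation genes had 6805, 8448 and 9694 in wild-type controls and 6616, 9804 and 11607 in wild-type CCA livers. Mdr2-/- controls had 2378, 3211 and 3515 and Mdr2-/- CCA livers 4083, 5164 and 7427, most of it from Fabp1. The 2 control groups were separate on this scale, and so were the 2 Mdr2-/- groups. The carnitine entry genes, by contrast, had group medians of 243, 248, 250 and 268 TPM in wild-type controls, wild-type CCA livers, Mdr2-/- controls and Mdr2-/- CCA livers, with overlapping ranges.

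**Figure D4:**
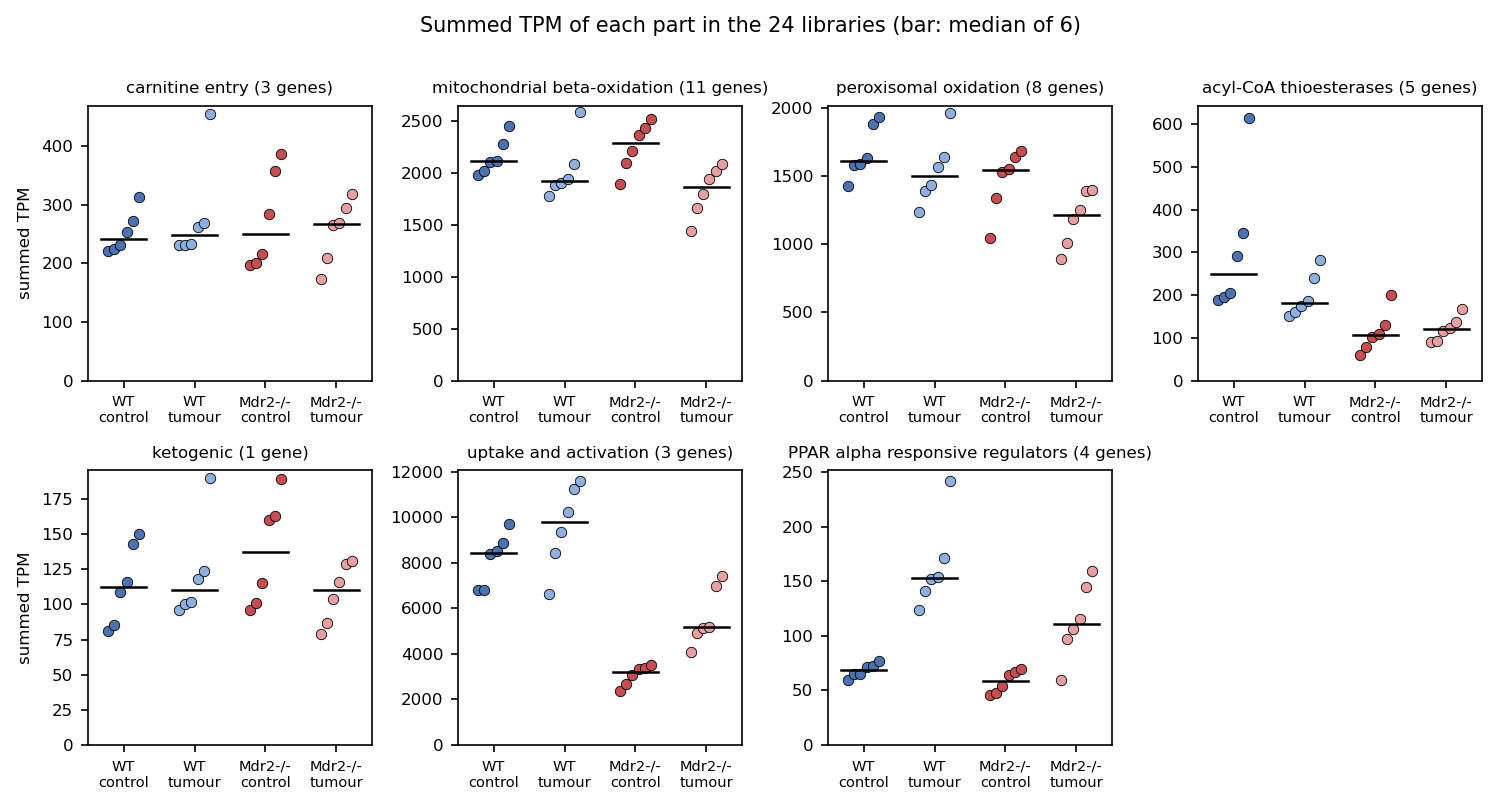
Summed TPM (vertical axes from 0) of each role group in each of the 24 libraries, with a bar at the median of 6. The mitochondrial group has medians between 1865 and 2286 TPM in all 4 groups, whereas uptake and activation runs from 3211 TPM in Mdr2-/- controls to 9804 in wild-type CCA livers.

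Of the 4 regulators 2 rose with tumours in each genotype, Fgf21 and Vnn1, against 16.9% of all genes in wild type and 17.9% in Mdr2-/-. None fell, which with 4 genes is near the 11.5% and 17.0% of all genes and shows nothing about them. The medians were 0.93 in wild type and 0.86 in Mdr2-/-. For genotype 2 were lower in controls (median -0.85) and 2 in CCA livers (median -0.79), against 24.3% and 4.0% of all genes. Summed TPM was 59.6, 68.3 and 77.0 in wild-type controls and 124, 153 and 242 in wild-type CCA livers, 46.2, 58.9 and 69.5 in Mdr2-/- controls and 60.0, 111 and 159 in Mdr2-/- CCA livers.

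Vnn1, the pantetheinase that hydrolyses a breakdown product of coenzyme A, was measured at 21.7, 27.7 and 42.5 CPM in wild-type controls and 69.4, 82.8 and 98.7 in wild-type CCA livers. Mdr2-/- controls had 13.3, 14.5 and 22.3 CPM, the highest being replicate 4, and Mdr2-/- CCA livers 35.8, 50.9 and 76.7 CPM. Control and CCA livers were separate in both genotypes, with a rise of 2.89-fold in wild type (1.53 ± 0.19, edgeR adjusted p = 1.65e-06) and 3.41-fold in Mdr2-/- (1.77 ± 0.19, adjusted p = 1.11e-06). The difference of 0.24 ± 0.26 was not called. Genotype gave -0.88 ± 0.19 in controls (adjusted p = 0.000468) and -0.64 ± 0.18 in CCA livers (adjusted p = 0.0238), the latter lost without wild-type replicate 2 (-0.61) or Mdr2-/- replicate 6 (-0.53). Both genotype calls were lost in some of the other alternative runs. With tumours in Mdr2-/-, Vnn1 was the 1 gene of the 16 called that remained called under every alternative run.

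Fgf21, the fasting hormone of the liver, had low counts. It had 0.603, 1.79 and 7.71 CPM in wild-type controls, 7.46, 10.4 and 17.4 in wild-type CCA livers, 0.801, 1.36 and 3.30 in Mdr2-/- controls and 1.29, 4.40 and 8.76 in Mdr2-/- CCA livers. Control and CCA ranges overlapped in both genotypes, in wild type by a single control library (replicate 4) above the 2 lowest CCA ones. The rise was 1.77 ± 0.49 in wild type (edgeR adjusted p = 0.00863) and 1.48 ± 0.50 in Mdr2-/- (adjusted p = 0.0258), the latter lost without Mdr2-/- control replicate 5 or 6 or Mdr2-/- CCA replicate 2 (1.19 to 1.39). Genotype differences of -1.0 ± 0.51 and -1.29 ± 0.48 were not called, except without wild-type control replicate 2 (-1.20) or Mdr2-/- control replicate 3 (-1.33) for controls and without Mdr2-/- replicate 2 (-1.58) for CCA livers.

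Angptl4, an inhibitor of lipoprotein lipase, was lower for genotype in controls (-0.83 ± 0.23) and in CCA livers (-0.94 ± 0.23), and its tumour effects of 0.34 ± 0.23 in wild type and 0.23 ± 0.23 in Mdr2-/- were not called. On log2(TPM + 1) and by total library size it rose with tumours in wild type. Pdk4, the kinase that turns off pyruvate dehydrogenase, was called in no comparison, with estimates from -0.47 ± 0.28 with tumours in Mdr2-/- to 0.55 ± 0.28 for genotype in controls. On log2(TPM + 1) and by total library size it was called higher in Mdr2-/- controls.

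PPAR alpha itself and its partners were read from a list of 13 genes. Ppara had 77.1, 118 and 149 CPM in wild-type controls, 83.7, 103 and 181 in wild-type CCA livers, 50.3, 73.4 and 177 in Mdr2-/- controls and 49.9, 70.9 and 78.7 in Mdr2-/- CCA livers. It was called in no comparison, the nearest being -0.78 ± 0.27 for genotype in CCA livers (edgeR adjusted p = 0.0587, and 0.039 by DESeq2), where the ranges were separate. Of the 13, 2 were lower and 3 higher for genotype in controls, 2 fell and 2 rose with tumours in wild type, and 6 fell and 0 rose in Mdr2-/-. Beside the shares of all genes, 24.3% lower and 26.2% higher, 11.5% and 16.9%, and 17.0% and 17.9%, the first 2 of these comparisons held counts near or below them and show nothing about the list. Pparg, the adipogenic relative of Ppara, rose with tumours in wild type (1.49 ± 0.26) and was higher in Mdr2-/- controls (1.12 ± 0.26). The coactivator Ppargc1a fell with tumours in wild type (-0.70 ± 0.22), a call lost without control replicate 6 (-0.48) or CCA replicate 3 (-0.61). Its relative Ppargc1b fell in Mdr2-/- (-1.15 ± 0.38), where it had 0.14 with the nuclear RNA share as a covariate and was not called without Mdr2-/- control replicate 1 (-1.05) or 6 (-0.80). Lpin1, a phosphatidate phosphatase and coactivator, was lower in Mdr2-/- controls (-1.11 ± 0.42), a call lost without wild-type control replicate 1 or 2 (-1.06 and -0.80) or Mdr2-/- control replicate 2, 3 or 5 (-0.99, -0.94 and -0.96).

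Ketone body genes outside the 35 were 7 in number, of which 5 were lower and 1 higher for genotype in controls, 3 fell and 1 rose with tumours in wild type, and 0 fell and 2 rose in Mdr2-/-. With 7 genes, 1 or 2 calls in a direction are near the all-gene shares given above. Acat1, the mitochondrial acetoacetyl-CoA thiolase, was lower in Mdr2-/- controls (-1.73 ± 0.19), and Slc16a1, a monocarboxylate carrier, fell with tumours in wild type (-0.59 ± 0.21), a call lost without any of replicates 3, 4 and 5 of either wild-type group (the smallest value, -0.50, without control replicate 5). Oxct1, the enzyme that lets tissues other than liver burn ketone bodies, rose with tumours in both genotypes (0.63 ± 0.17 and 1.01 ± 0.17) and was higher in Mdr2-/- controls (0.77 ± 0.17).

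Of 14 further mitochondrial oxidation genes 8 were lower and 0 higher for genotype in controls, 5 fell and 0 rose with tumours in wild type, and 4 fell and 3 rose in Mdr2-/-, where 17.0% of all genes fell and 17.9% rose. The largest falls with tumours were those of Acsm1, a medium-chain acyl-CoA synthetase, in wild type (-1.15 ± 0.17) and of Acad10, an acyl-CoA dehydrogenase family member, in Mdr2-/- (-1.02 ± 0.17). The brain isoform Cpt1c rose in Mdr2-/- (1.43 ± 0.32), and Acacb, the carboxylase that makes malonyl-CoA at mitochondria, was lower in Mdr2-/- controls (-1.09 ± 0.35), a call lost without wild-type control replicate 2 (-0.82). Of 18 tested peroxisomal genes outside the 35, 8 were lower and 3 higher for genotype in controls, 8 fell and 1 rose with tumours in wild type, and 10 fell and 0 rose in Mdr2-/-, against 24.3% of all genes lower for genotype in controls and 11.5% and 17.0% falling with tumours.

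Hacl1, which cleaves branched and hydroxylated chains, was lower in Mdr2-/- controls (-1.81 ± 0.28) and fell with tumours in wild type (-1.68 ± 0.28), the largest fall of that list in each. Catalase, Cat, which removes peroxisomal hydrogen peroxide, fell with tumours in Mdr2-/- (-0.77 ± 0.17). Pex19, a peroxisome assembly factor, rose with tumours in wild type (0.50 ± 0.12), and the thioesterase Acot6 was higher in Mdr2-/- controls (1.04 ± 0.22). Among 14 tested further targets of PPAR alpha, 7 were lower and 3 higher for genotype in controls, 4 fell and 3 rose with tumours in wild type, and 1 fell and 2 rose in Mdr2-/-. The 3 that were higher or rose were near the all-gene shares of 26.2% and 16.9%, and both Mdr2-/- tumour counts were below the 17.0% and 17.9% of all genes, so these show nothing about the list.

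Cyp4a14, a fatty acid omega-hydroxylase, had the largest genotype difference of the genes named here. Its levels were 599, 891 and 1245 CPM in wild-type controls, 77.9, 158 and 248 in wild-type CCA livers, 24.5, 32.6 and 68.7 in Mdr2-/- controls and 7.35, 15.4 and 60.4 in Mdr2-/- CCA livers. Genotype gave -4.54 ± 0.44 (edgeR adjusted p = 1.66e-08) among controls and -2.59 ± 0.40 in CCA livers. With tumours it fell in wild type (-2.53 ± 0.40), and its -0.58 ± 0.38 in Mdr2-/- was called only without Mdr2-/- CCA replicate 1 (-1.07). Cd36, the fatty acid translocase, went up, rising with tumours in wild type (1.67 ± 0.19) and being higher in Mdr2-/- controls (0.95 ± 0.18). G0s2, an inhibitor of lipolysis, rose with tumours in Mdr2-/- (1.28 ± 0.35), and Pnpla2, the lipase it inhibits, fell there (-0.68 ± 0.26) but had 0.33 with the nuclear RNA share as a covariate. The fall of Pnpla2 was also lost without Mdr2-/- control replicate 1, 5 or 6 (-0.58, -0.67 and -0.57) or Mdr2-/- CCA replicate 1, 4, 5 or 6 (-0.58, -0.72, -0.72 and -0.63).

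**Figure D5:**
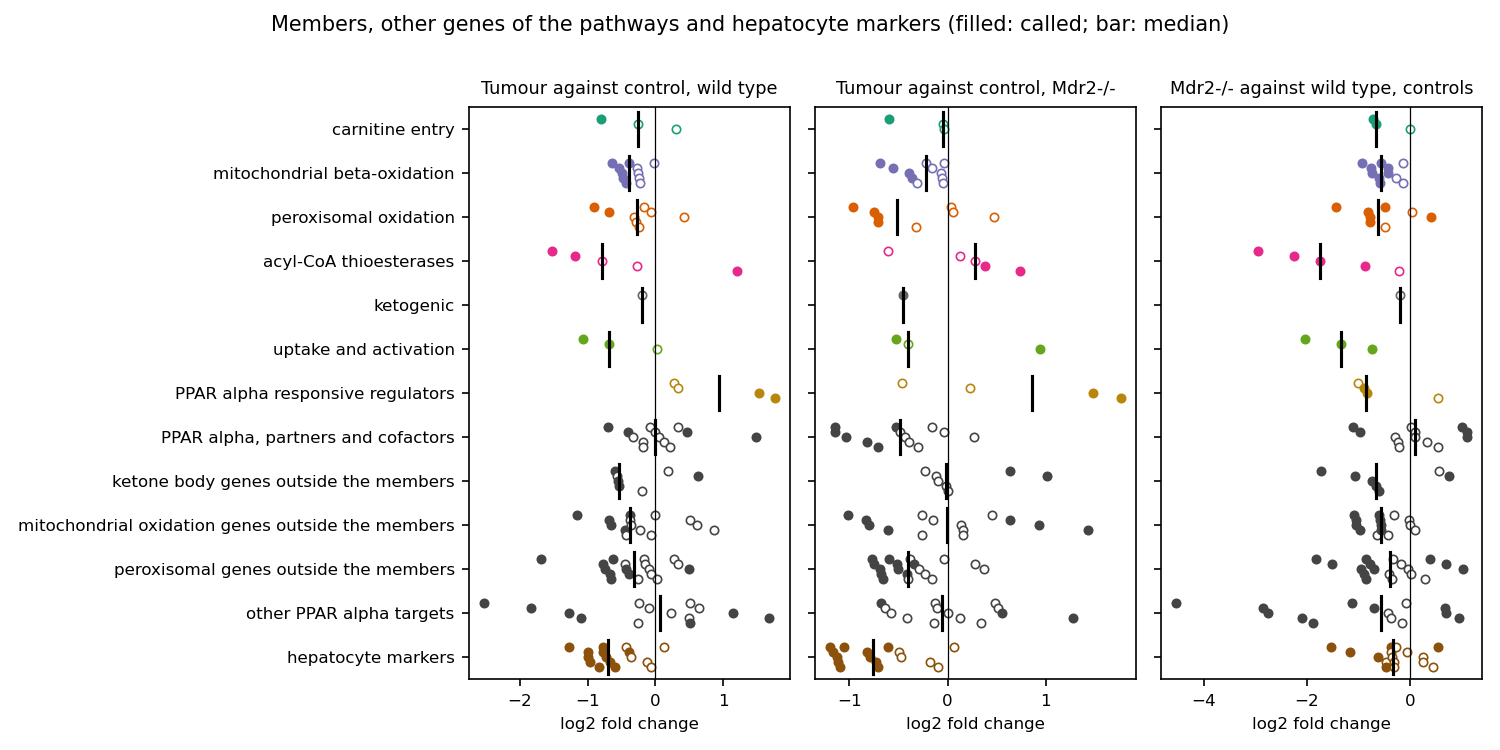
Log2 fold changes (horizontal axes, of different width) of the 35 genes by role, of 5 lists of other pathway genes and of hepatocyte markers in 3 comparisons, with filled points for genes called by edgeR and a bar at each median. Hepatocyte markers have medians of -0.70 and -0.76 with tumours in wild type and Mdr2-/-, below the -0.39 and -0.22 of the mitochondrial group, and -0.32 for genotype in controls, above its -0.55.

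Markers of hepatocytes fell more than the 35 genes with tumours and less for genotype in controls. With tumours the median of the markers was -0.70 in wild type and -0.76 in Mdr2-/-, and that of the 35 genes -0.27 and -0.16. Of the 16 markers 11 were called lower in each, against 11.5% and 17.0% of all genes. For genotype in controls 5 of the 16 markers were lower and 1 higher, against 24.3% and 26.2% of all genes. Their median there was -0.32, beside -0.72 for the 35 genes. Between the CCA groups 6 markers were lower, against 4.0% of all genes, with a median of -0.47. Summed over the 16, TPM was 94844 to 137520 in wild-type controls, 74717 to 120673 in wild-type CCA livers, 94221 to 130656 in Mdr2-/- controls, and between 53460 and 78506 in Mdr2-/- CCA livers. Their part in the changes of the 35 genes was not tested.

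Cholangiocyte markers were called higher in 9 of 11 with tumours in wild type, 8 in Mdr2-/-, 10 for genotype in controls and 8 for it in CCA livers. Fibroblast and stellate cell markers, 6 in number, were higher in 4 for genotype in controls (median 1.22), where their summed TPM went from 193 to 242 in wild type to 373 to 511 in Mdr2-/-. With tumours 3 rose in wild type and 1 in Mdr2-/-. Macrophage markers were likewise higher in 4 of 6 for genotype in controls (median 0.51), with sums of 182 to 232 TPM in wild type and 293 to 409 in Mdr2-/-, while 2 rose with tumours in wild type and 2 fell in Mdr2-/-. Markers of proliferating cells were higher in 3 of 3 for genotype in controls (median 1.99) and rose in 3 of 3 with tumours in wild type (1.74), their sum being 1.76 to 2.85 TPM in wild-type controls, 3.64 to 16.7 in wild-type CCA livers and 5.42 to 13.2 in Mdr2-/- controls. In Mdr2-/- CCA livers that sum was 7.53 to 27.9 TPM, and the median log2 fold change with tumours was 0.60. Leukocyte markers were higher in 2 of 4 for each genotype comparison, and 1 rose with tumours in Mdr2-/-. Of 5 endothelial markers 1 was higher and 1 lower for genotype in controls, and 4 were lower for it in CCA livers. For genotype in controls 26.2% of all genes were higher and 24.3% lower, and in CCA livers 7.13% and 4.0%. With tumours 16.9% of all genes rose in wild type, and 17.9% rose and 17.0% fell in Mdr2-/-. Counts of 1 in these short lists are near those shares and show nothing about the cell types. The part of these cell types in the changes of the 35 genes was not tested. Of the other cell types that use or store fatty acids, adipocyte markers summed to at most 6.33 TPM in any library. Skeletal muscle markers ran from 0.983 to 320 TPM with a wide range in every group, 1.41 to 320 in wild-type controls, 107 to 262 in wild-type CCA livers, 0.983 to 297 in Mdr2-/- controls, and between 2.22 and 308 in Mdr2-/- CCA livers, and 0 of 5 were called by edgeR in any of the 5 comparisons.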

How the data were processed

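Liver RNA of 24 libraries had been depleted of ribosomal RNA and sequenced as pairs of 150 bases, per the labels' protocols; whether strand was kept is not stated, so reads of antisense genes may be mixed in. From the authors came 2 kinds of deposited value, raw counts for each gene and TPM. The build mm39 and DESeq2 stand in the submitters' processing notes; aligner and counter are not given in the sources used. Counts of 49315 genes were filtered (edgeR 4.0.16, R 4.3.3, filterByExpr, minimum count 10), leaving 17216 genes and 99.82 to 99.95% of counts, scaled by TMM, and tested in 1 robust quasi-likelihood fit of 4 group means with 5 contrasts, 2-sided, Benjamini-Hochberg adjusted. Genes without a symbol, 174 in all, held 0.01108 to 0.01776% of counts and entered no list. At 1 CPM a library had 16.4 to 34.2 counts. On simulated data for the wild-type tumour comparison (12931 genes), the test recovered 80 of 100 genes given a 2-fold change and 100 of 100 given a 4-fold one, with 6 false calls.

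Levels per library are given for genes called with at least 2-fold change in any comparison and for Cpt1a, Acadm, Hadha, Ehhadh, Fgf21 and Bdh1. Of the other pathway genes, Ppara and Cyp4a14 were named in any case, and from each list the called gene with the largest rise and fall in both tumour comparisons and in genotype of controls, at 1 CPM or more. Alternatives were other scalings, filters, DESeq2 1.42.0, limma 3.58.1 on log2(TPM + 1) and log2(TPM + 0.1), covariates and left-out libraries. Replicate numbers follow accession order. Genes and lists were chosen with earlier results of these data known. Identity of coding sequences was computed from GENCODE M21 transcripts in place of proteins, which were not used here. Some genes that this rule names are not reported here.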

Additional observations from a re-analysis of the deposited data

Results flagged for a closer look

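A single library lay far from the other 5 of its group, by Dixon's criterion, in 8 of the 140 combinations of gene and group, and chance gives about 1 in 20. Wild-type CCA replicate 6 held the highest Cpt1a, 521 CPM (nearest 327), and the highest Hadha, 427 CPM (nearest 264). Mdr2-/- control replicate 4 had the lowest Cpt2, 58.7 CPM (nearest 94.9), the lowest Ehhadh, 237 CPM (nearest 386), and the highest Vnn1, 22.3 CPM (nearest 16). Mdr2-/- CCA replicate 6 had the lowest Acaa1b, 87.5 CPM (nearest 192), and the lowest Hsd17b4, 118 CPM (nearest 176). Wild-type control replicate 6 had the lowest Pdk4, 5.41 CPM (nearest 10.8).

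The tumour effect differed between the genotypes (Mdr2-/- minus wild type, log2 scale, edgeR) for Acot1 by 1.93, Crot by 1.14, Fabp1 by 0.92 and Acot8 by 0.66, and for Acot2 by -0.91 and Acaa1a by -0.69. These 4 higher and 2 lower of the 35 do not exceed the 11.9% and 13.4% of all genes, so the counts show nothing about the set. With the nuclear RNA share as a covariate the call of Acot1 remained and those of the other 5 were lost.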

How the results depend on the processing

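Of the 35 genes, 16 were called with tumours in Mdr2-/-. The number was 10 on log2(TPM + 1) and 10 on log2(TPM + 0.1), 3 with the nuclear RNA share as a covariate, and 10 to 16 when each library was left out, the lowest without Mdr2-/- control replicate 6. With tumours in wild type 16 were called, and 9 and 10 on the TPM scales, 6 with the title number as a covariate, and 11 to 18 with libraries left out. The 6 differences of tumour effects became 2 with the nuclear RNA share. For genotype in controls 25 became 16 on both TPM scales. For genotype in CCA livers 18 became 8 by total library size, 8 and 7 on the TPM scales, and 10 to 21 when each library was left out. Over all genes, the 5995 called with tumours in Mdr2-/- became 960 and the 4355 differences 2682 with the nuclear RNA share. The 1917 for genotype in CCA livers became 2927 by total library size, 3306 and 3069 on the TPM scales, and 1116 to 2751 with libraries left out, the lowest without Mdr2-/- CCA replicate 6 and the highest without wild-type CCA replicate 3.

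With the nuclear RNA share as a covariate, the sign turned for tumours in Mdr2-/- in Cpt1a (0.63), Bdh1 (0.03), Ppargc1b (0.14) and Pnpla2 (0.33). On both TPM scales it turned for genotype in controls, among others, in Acads (0.33), Hadha (0.02), Decr1 (0.02) and Bdh1 (0.25 and 0.26). The cause was not tested. Calls that held under every alternative run numbered 1 of 16 with tumours in Mdr2-/- (Vnn1), 6 of 16 in wild type, 1 of 6 differences (Acot1), 12 of 25 for genotype in controls and 7 of 18 in CCA livers. No paired analysis was possible because the replicate numbers follow accession order and pair no samples. Below about 1 CPM a gene has few counts, which limits Fgf21 in the controls.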
